A study of Mus musculus with 4 samples.

Results

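The CTLH complex is a ubiquitin ligase of many subunits, and 10 of its subunit genes were followed here in erythroid cells that lack the Mediator subunit gene Med16. The 10 genes, Maea, Rmnd5a, Rmnd5b, Wdr26, Mkln1, Ranbp9, Ranbp10, Gid8, Armc8 and Gid4, were taken by their symbols from the 56691 genes listed in each count table, and each symbol matched 1 gene. Poly(A) RNA from mouse Ter119+ bone marrow cells was sequenced in 2 libraries labelled Med16 KO and 2 labelled Med16 fl/fl, in which the Med16 alleles are floxed. The titles of the KO libraries hold the letters DK, whose meaning is not given, and the genotype label was followed here. All 4 carry the time label of 3 weeks. The sources used here give neither the Cre driver, the deleted exons and the animals' age, nor whether a library held 1 animal or a pool. Ter119 is a surface antigen of the erythroid lineage, and Med16 encodes a subunit of the tail of Mediator, which links transcription factors to RNA polymerase II.

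CTLH, named for a C-terminal to LisH motif that several subunits share, is the mammalian counterpart of the yeast GID ligase. MAEA and RMND5A or RMND5B form the RING pair that receives ubiquitin from the E2 enzyme UBE2H; RANBP9 or RANBP10, GID8 and ARMC8 form the scaffold; GID4 docks on ARMC8 as a substrate receptor; and WDR26 or MKLN1 joins such units into larger assemblies. In human erythroid cells the complex is rebuilt during maturation, with RANBP10 gaining over RANBP9, and mouse Wdr26 takes part in nuclear condensation of erythroblasts. MAEA is also known as erythroblast macrophage protein, after its part in contacts within erythroblastic islands.

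The libraries held 6749196 to 7216333 counts assigned to genes, so 1 count equalled 0.139 to 0.148 CPM (counts scaled to 1000000 assigned counts). Reads not aligned made up 2.69% and 3.27% in the KO libraries, against 1.05% and 0.826% in the fl/fl libraries. Genes with at least 1 count numbered 16892 and 16479 in KO, against 18947 and 19016 in fl/fl. The part of these differences between genotypes in the results below was not tested. Med16 had 16 and 30 counts in the KO libraries, against 164 and 127 in the fl/fl libraries (log2 fold change -2.64, SE 0.34, adjusted p = 4.6e-05 by the quasi-likelihood test of edgeR with Benjamini-Hochberg adjustment). The targeted gene thus followed the labels. All 10 markers fixed for erythroid cells, among them Slc4a1, Klf1 and Hbb-bs, were detected in every library. Of these, 8 were called lower and 2, Alas2 and Hba-a1, higher in KO by the same test at adjusted p under 0.05. Of all 13052 genes tested, 9.89% were called lower and 8.5% higher, which also stands beside the counts of the next marker lists. The sum of the erythroid markers, mostly globin, was 164110 and 168240 CPM in the KO libraries and 172190 and 165800 CPM in the fl/fl libraries. All 10 neutrophil markers, such as Mpo and S100a8, were higher in KO, with a summed level of 19219 and 19606 CPM in the KO libraries against 13675 and 13497 CPM in the fl/fl libraries. Of 8 megakaryocyte and platelet markers 6 were higher and none lower, with a sum of 149 and 155 CPM in the KO libraries and 58.3 and 50.2 CPM in the fl/fl libraries, and Gp1bb was at 0 throughout. B cell markers (1 of 8 higher) summed to 222 and 238 CPM in the KO libraries and 227 and 242 CPM in the fl/fl libraries. The part of these other cells in the results below was not tested, and in such bulk RNA fewer cells of a type and less RNA per cell cannot be told apart.

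The 2 subunit genes with most reads, Ranbp10 and Wdr26, were lower in Med16 KO, as were Rmnd5a and Mkln1, while Maea was higher. The other 5 members, Rmnd5b, Ranbp9, Gid8, Armc8 and Gid4, were not called. All 10 members passed the filter on low counts. Thus 4 of 10 were called lower and 1 higher (edgeR quasi-likelihood test, adjusted p under 0.05), where 9.89% of all 13052 genes tested were called lower, 8.5% higher and 18.4% either way. Here and throughout, such shares over all genes were not taken among genes with counts like those of the listed genes. Over all genes 1109 were higher and 1291 lower, and when libraries were scaled by size alone 1365 were higher and 1054 lower. The median log2 fold change was -0.24 over the members and 0.02 over all genes tested, and no member changed by as much as 1.5-fold. With 2 libraries per genotype, and no label that says they came from separate animals, these p-values measure the spread between libraries, which may be technical. The biological coefficient of variation common to all genes was estimated by edgeR as 0.125, but the quasi-likelihood test also fits each gene's own spread. A setting added with the data in view assumed 0.2 for every gene, in a likelihood ratio test. None of the 10 members was then called in either direction.

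**Figure D1:**
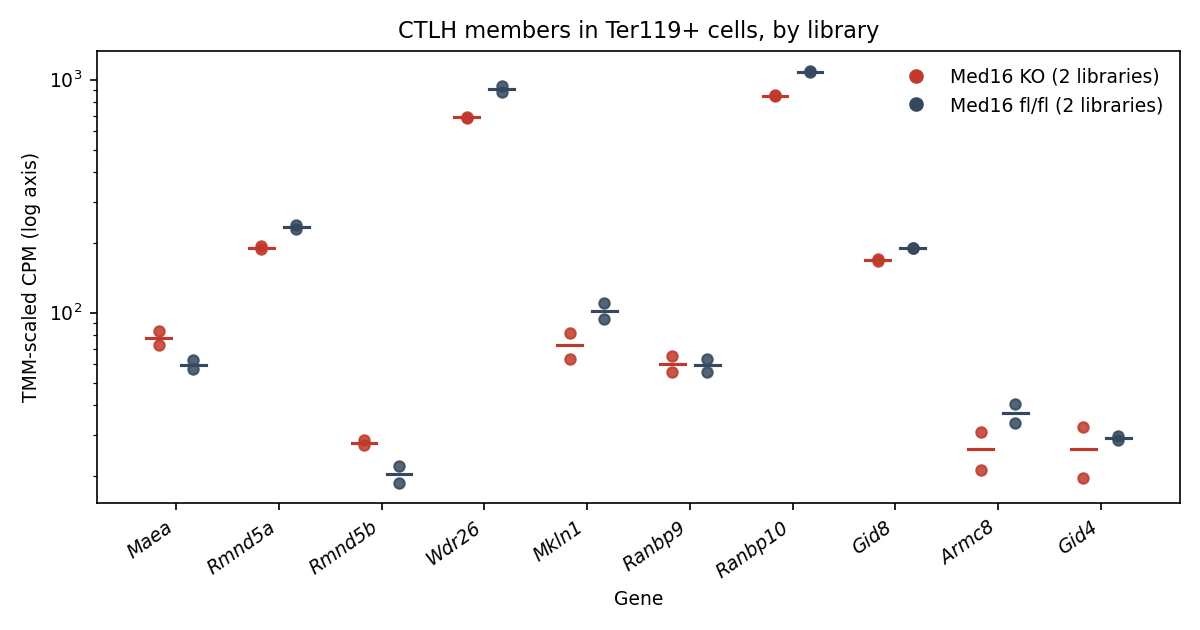
TMM-scaled CPM of the 10 CTLH members on a log axis, with 1 point per library and a bar at the mean of each genotype, Med16 KO left of Med16 fl/fl. Ranbp10 and Wdr26 lie far above the other members in all 4 libraries and are lower in both KO libraries than in either fl/fl library.

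The catalytic RING subunits went different ways. Maea (ENSMUSG00000079562.8, chromosome 5), the RING subunit shared by all forms of the ligase, had 72.7 and 83.8 CPM in the KO libraries, against 57.2 and 62.5 CPM in the fl/fl libraries. Both KO libraries stood above both fl/fl libraries, and Maea rose by a log2 fold change of 0.39 (SE 0.12, 95% interval 0.13 to 0.64, edgeR adjusted p = 0.033). This call was near the threshold: it was lost without KO library 2 (0.27, adjusted p = 0.085), fl/fl library 1 (0.31, adjusted p = 0.389) or fl/fl library 2 (0.44, adjusted p = 0.149), with DESeq2 (adjusted p = 0.076), and with offsets for GC content (0.29, adjusted p = 0.116) or transcript length (0.33, adjusted p = 0.063).

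Its partner gene Rmnd5a (ENSMUSG00000002222.15, chromosome 6) had 187 and 193 CPM in the KO libraries and 229 and 238 CPM in the fl/fl libraries. The genotypes did not overlap, and Rmnd5a fell by 0.30 on the log2 scale (SE 0.07, edgeR adjusted p = 0.0060), a call lost with a GC content offset at -0.18 (adjusted p = 0.079) and without fl/fl library 2 at -0.28 (adjusted p = 0.119). The paralog Rmnd5b (ENSMUSG00000001054.10, chromosome 11), the less abundant partner, had 28.3 and 27 CPM in the KO libraries against 18.6 and 22.0 CPM in the fl/fl libraries. These values did not overlap either, but Rmnd5b missed the threshold at a log2 fold change of 0.45 (SE 0.19, 95% interval 0.04 to 0.86, edgeR adjusted p = 0.129), and was at 0.25 with a GC content offset. Rmnd5b shares 44 bases of exon with Nhp2 on the opposite strand in the GENCODE M21 annotation, 2.04% of its exon length, and Nhp2 was higher in KO at 0.63 (adjusted p = 0.027). With the strand setting of the counting not given, reads in that overlap cannot be assigned.

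Per kilobase of transcript, Rmnd5b made up 32.4% and 30.7% of the summed Rmnd5a and Rmnd5b level in the KO libraries, against 20.5% and 22.6% in the fl/fl libraries. The mean share was 31.6% ± 1.21 in KO and 21.6% ± 1.49 in fl/fl (SD, n = 2 each), a difference of 9.98 percentage points (p = 0.333 in a two-sided exact permutation test, the lowest value that 2 against 2 libraries allow). In plain counts, which carry no assumption on length, Rmnd5b had 13.1% (95% exact binomial interval 11.5 to 14.9) and 12.3% (10.6 to 14.0) in the KO libraries. It had 7.53% (6.34 to 8.87) and 8.45% (7.20 to 9.83) in the fl/fl libraries. These intervals cover counting error only, and those of the KO libraries lie above those of the fl/fl libraries. A share of this kind does not depend on how libraries are scaled, but it was not taken with a GC content offset. GC content was 57.0% for Rmnd5b and 44.9% for Rmnd5a. With that offset their log2 fold changes were 0.25 and -0.18, against 0.45 and -0.30 without it.

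WDR26 and MKLN1 join CTLH units into larger assemblies, and WDR26 also receives substrates. Wdr26 (ENSMUSG00000038733.15, chromosome 1) had 687 and 694 CPM in the KO libraries, against 884 and 935 CPM in the fl/fl libraries. It fell by 0.40 on the log2 scale (SE 0.04, 95% interval -0.49 to -0.30, edgeR adjusted p = 1.2e-05), the smallest adjusted p among the members. Mkln1 (ENSMUSG00000025609.16, chromosome 6), which encodes muskelin, had 63.4 and 81.8 CPM in the KO libraries and 94.3 and 110 CPM in the fl/fl libraries. Its genotypes did not overlap although both were spread, and it fell by 0.49 (SE 0.13, edgeR adjusted p = 0.012). The Mkln1 call was lost without fl/fl library 2 (-0.39, adjusted p = 0.178) and with offsets for GC content (-0.31, adjusted p = 0.119) or transcript length (-0.33, adjusted p = 0.077). The call of Wdr26 held under 11 of 12 alternatives, all but the assumed coefficient of variation of 0.2. Its values spanned -0.45 to -0.29.

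Of the scaffold paralogs Ranbp10 and Ranbp9, the gene with more reads fell and the other was not called, as in the RMND5 pair. The pairs were alike in these calls only: Rmnd5b had a log2 fold change of 0.45 (SE 0.19) and Ranbp9 of 0.02 (SE 0.13). Both genes not called were measured less precisely than their paralogs. Ranbp10 (ENSMUSG00000037415.8, chromosome 8), the scaffold subunit that gains during erythroid maturation in human cells, had 851 and 856 CPM in the KO libraries against 1086 and 1078 CPM in the fl/fl libraries. Libraries of a genotype lay close together, and Ranbp10 fell by 0.34 (SE 0.04, 95% interval -0.43 to -0.26, edgeR adjusted p = 1.6e-05), and its call held under the same 11 alternatives, with values of -0.42 to -0.29. Ranbp9 (ENSMUSG00000038546.10, chromosome 13), the paralog that prevails in other human cells, had 55.5 and 65.3 CPM in the KO libraries and 55.5 and 63.5 CPM in the fl/fl libraries. The genotypes overlapped, and the log2 fold change of 0.02 had a 95% interval of -0.26 to 0.30 (edgeR adjusted p = 0.940). Exons of Nol7 on the opposite strand overlap 8.83% of the exon length of Ranbp9, and Nol7 was not called (-0.12, adjusted p = 0.596).

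Ranbp10 made up 90.7% and 89.3% of the paralog pair's level per kilobase in the KO libraries, against 92.6% and 91.5% in the fl/fl libraries. The means were 90.0% ± 0.997 in KO and 92.0% ± 0.736 in fl/fl (SD, n = 2 each), a difference of -2.05 percentage points (two-sided exact permutation p = 0.333, the lowest possible). In both genotypes Ranbp10 was thus the main paralog by a wide margin. Without KO library 2 the difference was -1.34 points.

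Gid8 (ENSMUSG00000027573.12, chromosome 2), the small LisH and CTLH protein at the centre of the scaffold, had 170 and 167 CPM in the KO libraries and 190 and 190 CPM in the fl/fl libraries. Both KO libraries were below both fl/fl libraries, but Gid8 missed the threshold at a log2 fold change of -0.17 (SE 0.07, 95% interval -0.33 to -0.02, edgeR adjusted p = 0.113). It was called lower without KO library 1 (-0.20, adjusted p = 0.041) and with a transcript length offset (-0.24, adjusted p = 0.030), and stood at -0.06 with a GC content offset.

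Armc8 and Gid4 form the substrate receptor arm and were the members most spread between the KO libraries. Armc8 (ENSMUSG00000032468.12, chromosome 9) had 21.1 and 30.8 CPM in the KO libraries and 33.6 and 40.5 CPM in the fl/fl libraries, and missed the threshold at a log2 fold change of -0.51 (SE 0.20, 95% interval -0.93 to -0.09, edgeR adjusted p = 0.087). Gid4 (ENSMUSG00000018415.15, chromosome 11) had 19.6 and 32.3 CPM in the KO libraries, which lay on either side of the 28.5 and 29.6 CPM of the fl/fl libraries. Its log2 fold change was -0.17 (95% interval -0.63 to 0.30, edgeR adjusted p = 0.667). KO library 1 held the lowest value of both genes. Without KO library 2 both were called lower, Armc8 at -0.82 (adjusted p = 1.0e-04) and Gid4 at -0.58 (adjusted p = 0.017), and without KO library 1 neither was, at -0.28 and 0.14.

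**Figure D2:**
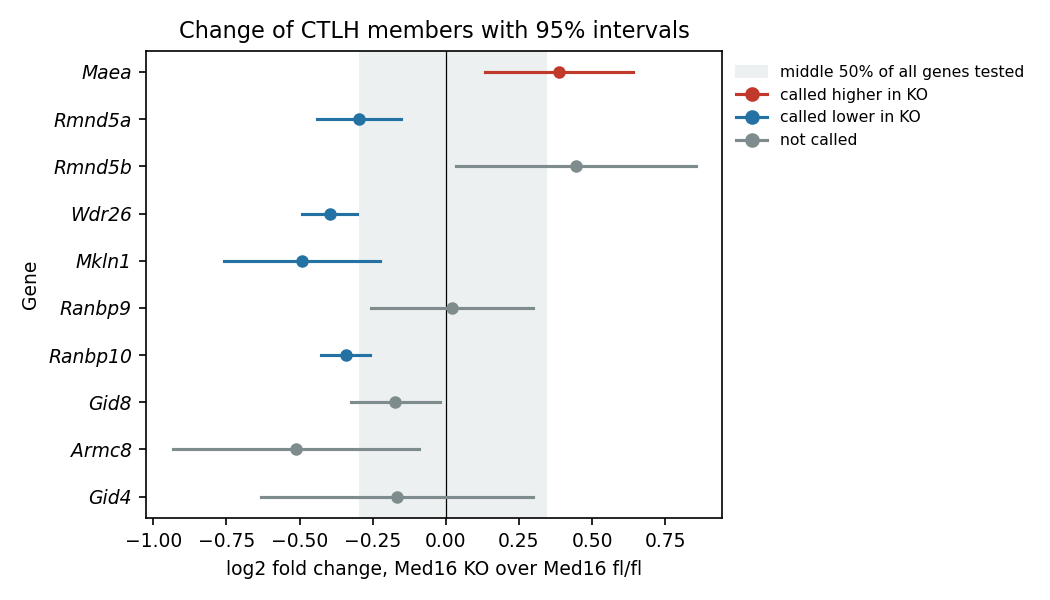
Log2 fold change of each CTLH member in Med16 KO over Med16 fl/fl (horizontal axis), with its 95% interval as a line, coloured by the call. The grey band holds the middle 50% of all genes tested, from -0.29 to 0.34. Wdr26 and Ranbp10 have the narrowest intervals, and those of Armc8, Gid4 and Rmnd5b are the widest.

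Levels of different genes were compared per kilobase of transcript. Over the 4 libraries Ranbp10 averaged 182 CPM per kilobase, Wdr26 114 and Gid8 86.8, which placed them above 97.4%, 95.8% and 94.5% of the 12844 tested genes with a transcript length. Rmnd5a followed with 34.3 CPM per kilobase and Maea with 31.5. Ranbp9 had 17.8, Rmnd5b 12.3, Mkln1 7.67, Armc8 6.78 and Gid4 6.42 CPM per kilobase, the last 3 near the middle of all tested genes. The RING and receptor genes were therefore measured at far lower levels than Ranbp10, Wdr26 and Gid8.

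Of neighbours in this order, the libraries of Mkln1 and Gid4, and of Gid4 and Armc8, overlapped within KO, and those of Rmnd5b and Mkln1, and of Mkln1 and Armc8, overlapped within fl/fl. All other neighbours in the order of a genotype did not overlap. Maea and Rmnd5a swapped places: Maea stood at 33.1 and 38.2 and Rmnd5a at 30.3 and 31.3 CPM per kilobase in the KO libraries, against 26.1 and 28.5 for Maea and 37.1 and 38.6 for Rmnd5a in the fl/fl libraries. Transcript lengths came from 1 principal transcript per gene. With the merged exon length of a gene in their place the first 7 kept their order by the mean over all libraries. Mkln1, whose merged exons span 28943 bases against 11395 in the transcript, came last. The order within a genotype, and with it the swap of Maea and Rmnd5a, was not taken with that length.

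Added up, the 10 members had 2156 and 2231 CPM in the KO libraries and 2677 and 2770 CPM in the fl/fl libraries. Both KO libraries were below both fl/fl libraries, and the log2 ratio of the means was -0.31 (two-sided exact permutation p = 0.333, the lowest possible). Ranbp10 and Wdr26 held 71.4% and 69.5% of these counts in the KO libraries and 73.6% and 72.7% in the fl/fl libraries, so the sum mostly follows these genes. Without them, in a comparison added with the data in view, the log2 ratio was -0.17, and the mean of log2 CPM, which weights members equally, differed by -0.16.

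Shares were also taken of the summed level per kilobase, which gives the make-up of the complex's transcripts. Maea held 7.37% and 8.22% in the KO libraries, against 4.89% and 5.17% in the fl/fl libraries, and Rmnd5b 3.23% and 2.98% against 1.80% and 2.05%. Ranbp10 held 35.7% and 34.7% in the KO libraries and 38.4% and 36.9% in the fl/fl libraries, and Wdr26 21.7% and 21.2% against 23.5% and 24.1%. Of the 10 shares, 8 did not overlap between genotypes, each with an exact two-sided permutation p of 0.333, and those of Armc8 and Gid4 overlapped. The shares of a library add up to a fixed whole, so they are not separate results, and no rate over all genes exists for them. Ranbp9 held 3.66% and 4.17% in the KO libraries against 3.09% and 3.42% in the fl/fl libraries, though its CPM overlapped. Gid8 held 18.3% and 17.4% against 17.2% and 16.7%, though its CPM were lower in KO. In CPM, 8 of the 10 members had genotypes that did not overlap, beside 57.6% of all 13052 genes tested.

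**Figure D3:**
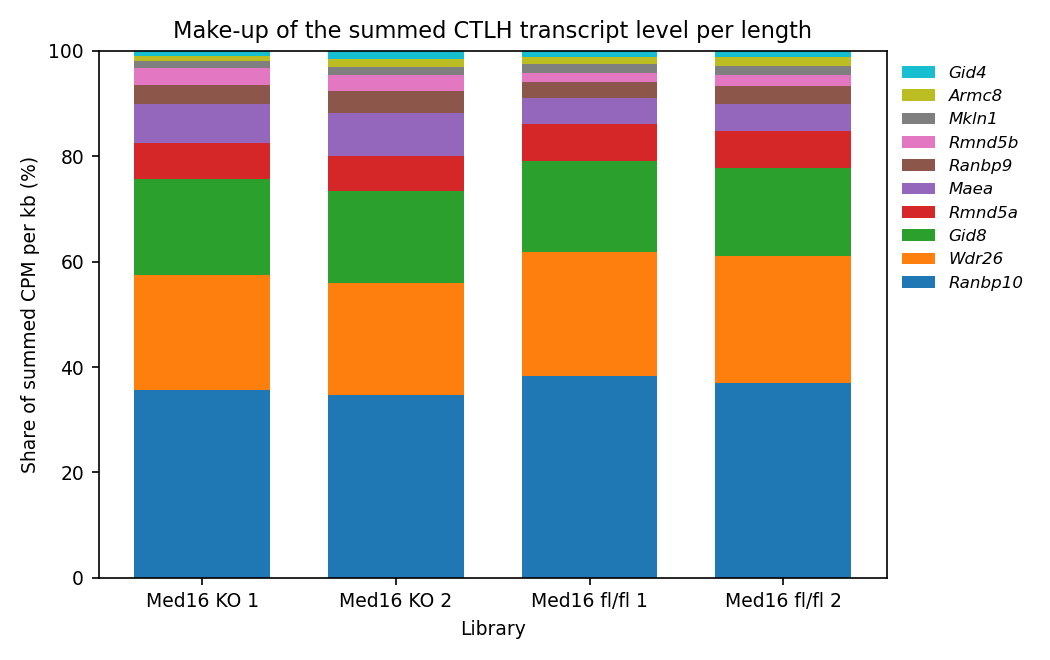
Share of each CTLH member in the summed level per kilobase (vertical axis, percent) in the 4 libraries, Med16 KO left of Med16 fl/fl. Ranbp10, Wdr26 and Gid8 fill most of each bar, and the Maea segment is larger in both KO libraries (7.37% and 8.22%) than in the fl/fl libraries (4.89% and 5.17%).

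Promoter sequence is shown for the assembly genes Wdr26 and Mkln1 and for the paralogs Rmnd5a and Rmnd5b, so that 3 members that fell can be read beside one that did not. The RefSeq promoter table used, on build GRCm38.p6, had entries for 8 of the 10 members, and none for Ranbp10 and Maea. Each window runs from 250 bases before to 50 bases after the annotated start. The erythroid factors GATA1 and KLF1 bind GATA and CACC elements. Matches to a GATA element (AGATAA or AGATAG as well as TGATAA or TGATAG) and to a CACC element (CCNCNCCC, which GC-rich boxes of other factors can also fit) were searched on both strands and are in capitals, overlapping matches run together.
Wdr26, chr1:181211929-181212228, minus strand: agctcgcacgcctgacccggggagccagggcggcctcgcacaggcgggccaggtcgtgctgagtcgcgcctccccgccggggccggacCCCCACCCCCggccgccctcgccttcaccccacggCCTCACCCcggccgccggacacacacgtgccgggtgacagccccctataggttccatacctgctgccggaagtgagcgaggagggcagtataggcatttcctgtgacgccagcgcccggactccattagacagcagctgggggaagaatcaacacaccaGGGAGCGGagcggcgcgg
Mkln1, chr6:31398578-31398877, plus strand: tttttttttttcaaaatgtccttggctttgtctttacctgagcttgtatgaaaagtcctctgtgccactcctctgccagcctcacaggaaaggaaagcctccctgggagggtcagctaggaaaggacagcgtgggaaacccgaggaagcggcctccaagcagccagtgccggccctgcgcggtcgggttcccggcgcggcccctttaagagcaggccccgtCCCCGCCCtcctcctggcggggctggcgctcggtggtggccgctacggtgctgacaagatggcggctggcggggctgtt
Rmnd5a, chr6:71440588-71440887, minus strand: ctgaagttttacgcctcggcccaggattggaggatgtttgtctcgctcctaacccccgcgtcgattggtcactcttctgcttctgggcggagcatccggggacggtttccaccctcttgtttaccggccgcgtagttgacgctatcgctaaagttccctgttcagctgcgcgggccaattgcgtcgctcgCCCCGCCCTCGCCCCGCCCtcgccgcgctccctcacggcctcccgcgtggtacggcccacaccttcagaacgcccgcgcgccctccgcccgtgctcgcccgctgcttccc
Rmnd5b, chr11:51635847-51636146, minus strand: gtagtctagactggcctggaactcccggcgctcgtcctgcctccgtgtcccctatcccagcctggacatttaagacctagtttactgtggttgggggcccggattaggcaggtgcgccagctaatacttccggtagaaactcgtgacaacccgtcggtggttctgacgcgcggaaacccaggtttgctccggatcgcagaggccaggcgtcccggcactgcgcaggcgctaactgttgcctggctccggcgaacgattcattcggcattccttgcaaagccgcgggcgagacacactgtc
No GATA match was found in these 4 windows, where 29.8% of 32851 promoter windows of this length held one. Among the other members Armc8 had 2 and each of the 3 windows of Gid8 at least 1. CACC matches numbered 4 for Wdr26, 1 for Mkln1, 3 for Rmnd5a and 0 for Rmnd5b, and 49.5% of all windows held at least 1. Members not called held CACC matches too: 4 each for Armc8 and Gid4, 1 for Ranbp9, and 5, 7 and 1 in the 3 windows of Gid8. The first 2 windows of Gid8 overlap and share their GATA match and all 5 CACC matches of the first. GC content was 71.3% for Wdr26, 62.3% for Mkln1, 66.7% for Rmnd5a and 61% for Rmnd5b. A match is a stretch of letters and shows no binding.

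By the centred log2 CPM over the 4 libraries, the genes most like Wdr26 among 5942 candidates were Nadk2, Slk, Cul4a, Atl2 and Bag2. Their root mean square differences from it were 0.0040 to 0.0089 on the log2 scale, and their log2 fold changes were -0.42 to -0.39. Bag2 was not called (edgeR adjusted p = 0.171), and Cul4a is also one of the other ubiquitin genes listed below. With 4 libraries in 2 groups, many genes that differ mainly by genotype lie close to each other on this measure.

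Beyond the members, transcripts of the E2 enzyme and of a cofactor of the ligase were lower, and those of its reported substrates went both ways. These are transcript levels, and neither substrate protein nor ligase activity was measured. Of 17 genes listed as partners or ligands 14 passed the filter, and 5 of these were called lower and 1 higher, against 9.89% and 8.5% of all genes tested; their median log2 fold change was 0.06. Ube2h, the dedicated E2 whose protein rises with CTLH in maturing human erythroid cells, had 340 and 358 CPM in the KO libraries, against 453 and 441 CPM in the fl/fl libraries, and fell by 0.36 (SE 0.06, edgeR adjusted p = 2.5e-04). Both KO libraries were well below both fl/fl libraries. Ypel5, a cofactor that binds WDR26, had 185 and 194 CPM in the KO libraries and 219 and 219 CPM in the fl/fl libraries (log2 fold change -0.21, SE 0.07, edgeR adjusted p = 0.045). Its call was lost when libraries were scaled by size alone (-0.16), with DESeq2 (-0.22), with a GC content offset (-0.07) and without fl/fl library 1 or 2 (both -0.22).

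Hbp1, a transcription factor gene whose product is a substrate of the WDR26 form of the ligase, had 106 and 91.5 CPM in the KO libraries against 144 and 137 CPM in the fl/fl libraries. It fell by 0.51 (SE 0.09, edgeR adjusted p = 0.0013). Arhgap11a, a RhoGAP gene, fell by 0.44 (SE 0.08, adjusted p = 0.0014). The lamin genes diverged. Lmnb1, which encodes lamin B1, had 405 and 414 CPM in the KO libraries and 461 and 458 CPM in the fl/fl libraries and fell by 0.17 (SE 0.05, adjusted p = 0.035). Lmnb2 had 39.6 and 36.7 CPM in the KO libraries and 21 and 27.3 CPM in the fl/fl libraries and rose by 0.66 (SE 0.18, adjusted p = 0.018). The Lmnb1 call was lost when libraries were scaled by size alone (-0.11) and without fl/fl library 1 (-0.18) or 2 (-0.18), and that of Lmnb2 with a GC content offset (0.42) and without fl/fl library 1 (0.47).

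Zmynd19, Hmgcs1, Ddx21, Ddx50, Ung, Fbp1 and Pck2 were among those tested and not called, with log2 fold changes of -0.11 for Zmynd19, 0.38 for Hmgcs1, 0.19 for Ddx21, 0.16 for Ddx50, 0.32 for Ung, 0.71 for Fbp1 and 0.10 for Pck2. Fbp1 and Pck2 belong to gluconeogenesis, whose enzymes are the classic substrates of the yeast ligase, and Fbp1 was near the floor with 13 to 33 counts a library. Ung was called higher without KO library 2, at 0.66, and stood at -0.16 without KO library 1. Leaving out 1 library at a time, Zmynd19 spanned -0.30 to 0.03, Hmgcs1 0.08 to 0.61, Ddx50 0.01 to 0.28, Fbp1 0.35 to 1.14 and Pck2 0.04 to 0.14. Fam72a had 9 and 21 counts in the KO libraries against 4 and 7 in the fl/fl libraries, Nmnat1 12 and 4 against 6 and 6, and Pck1 6 and 0 against 0 and 0, all 3 below the filter.

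**Figure D4:**
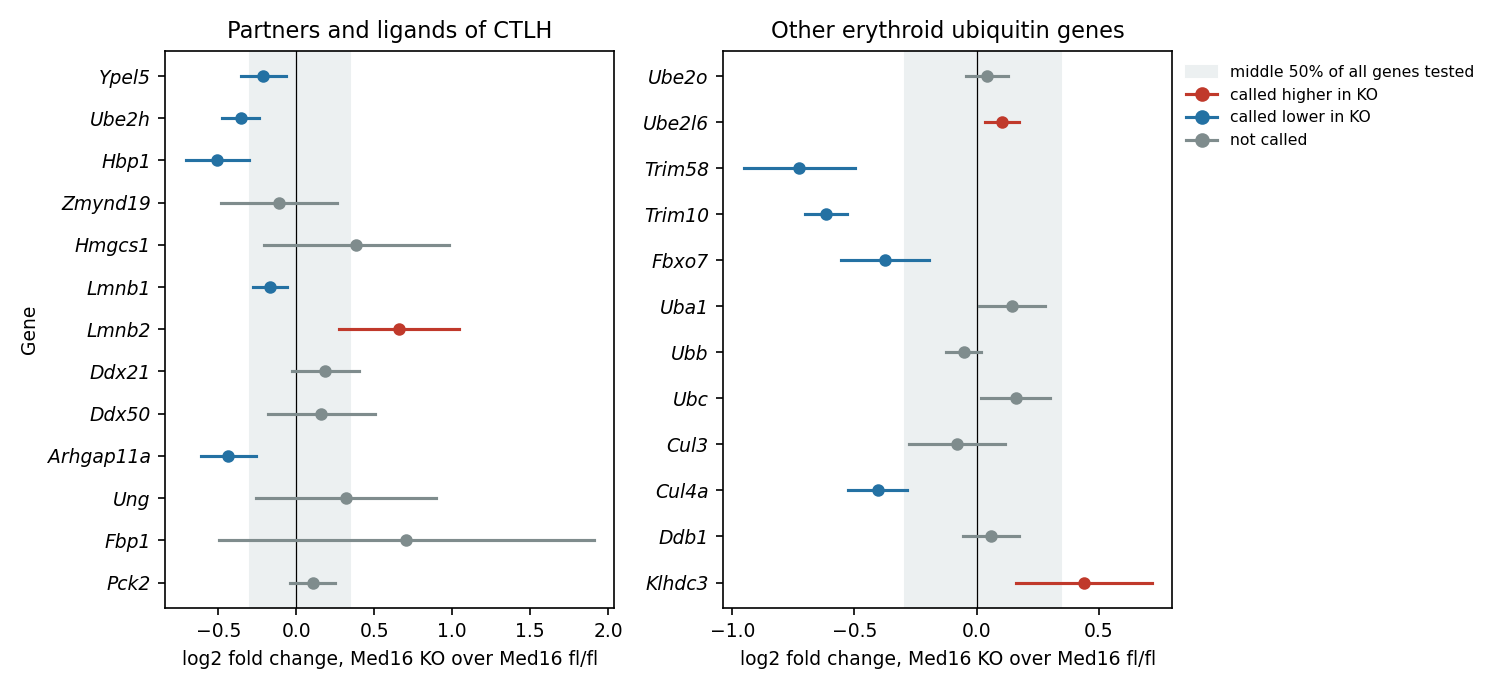
Log2 fold change in Med16 KO over Med16 fl/fl (horizontal axis) with 95% intervals for tested partners and ligands of the ligase (left) and for 12 other ubiquitin genes of erythroid cells (right). The grey band holds the middle 50% of all genes tested. Ube2h, Hbp1 and Arhgap11a lie below the band, as do Trim58, Trim10, Fbxo7 and Cul4a.

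Of 12 other ubiquitin genes, listed for comparison, 4 were lower and 2 higher, against 9.89% and 8.5% of all genes tested, with a median log2 fold change of 0.00. Trim58 and Trim10, erythroid TRIM ligase genes, fell by 0.72 (SE 0.11, edgeR adjusted p = 1.7e-04) and 0.62 (SE 0.04, adjusted p = 3.6e-08), Fbxo7 by 0.37 and the cullin gene Cul4a by 0.40. Ube2o, an E2 and E3 enzyme that clears ribosomes in reticulocytes, was not called, with 1456 and 1385 CPM in the KO libraries and 1410 and 1348 CPM in the fl/fl libraries (0.04, SE 0.04). With a GC content offset it was called lower, at -0.19 (adjusted p = 0.0018). Klhdc3 and Ube2l6 rose by 0.44 and 0.10 on the log2 scale. The Klhdc3 call was lost under 7 of the 12 alternatives and the Ube2l6 call under 8, among them either offset and the fits without fl/fl library 1 or 2.

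Since MAEA also acts in the macrophage at the centre of the erythroblastic island, macrophage markers were set beside it. Of 10 island macrophage markers 4 were lower in KO and none higher, against 9.89% and 8.5% of all genes tested. Their summed level was 342 and 338 CPM in the KO libraries against 439 and 417 CPM in the fl/fl libraries. Those lower were Vcam1, Cd163, Mrc1 and Hmox1, which are named after their values were seen, and the median log2 fold change of the list was -0.27. The 6 not called went both ways: Adgre1 and Siglec1 at -0.27 each, C1qb at -0.10, C1qa at 0.01, C1qc at 0.18 and Spic at 0.33. Hmox1 made up a large part of the difference in the sum, with a mean of 54.2 CPM in KO and 96.7 CPM in fl/fl. Maea, whose call was near the threshold, was higher in KO and this summed level was lower. The part of macrophages in the Maea value was not tested. The 10 erythroid markers had a median log2 fold change of -0.37, beside -0.40 for Wdr26, -0.34 for Ranbp10 and -0.24 as the median of the 10 members. Whether the members differed from these markers was not tested.

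**Figure D5:**
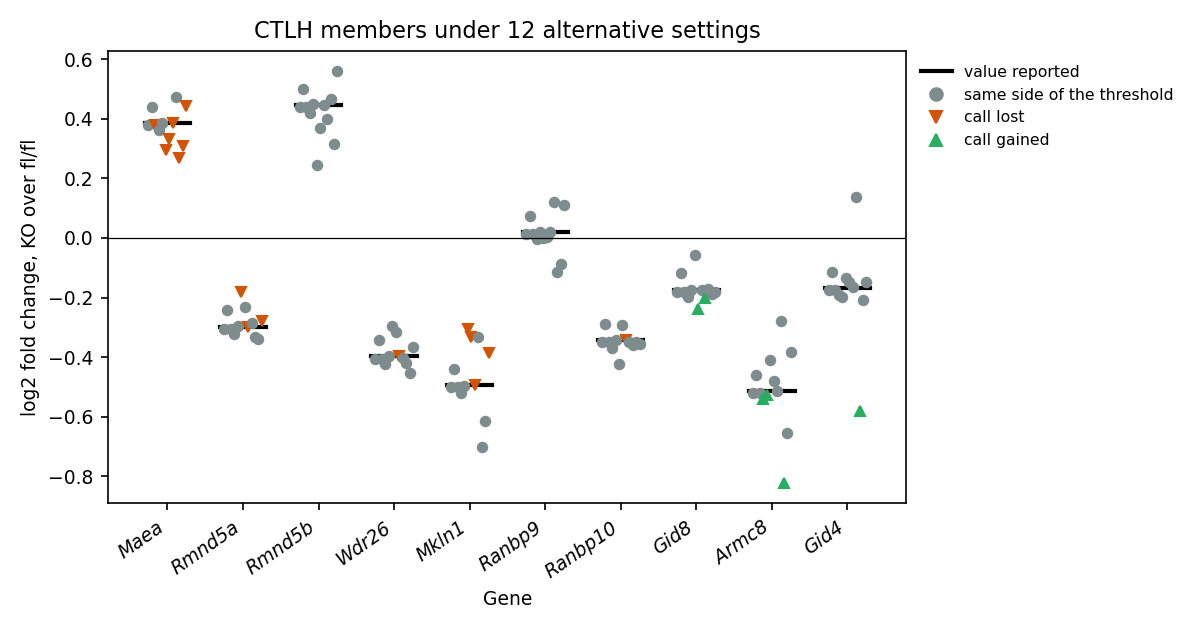
Log2 fold change of each CTLH member, KO over fl/fl (vertical axis), under the reported settings (black bar) and under 12 alternatives (points, shaped by whether the call was kept, lost or gained). Ranbp10 and Wdr26 lost their call only with the assumed coefficient of variation of 0.2, and Maea lost its call under 7 of the 12.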

How the data were processed

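Poly(A) RNA libraries of Ter119+ bone marrow cells, 2 per genotype, were deposited by the authors as raw counts per gene. Per the submitters' processing notes, FastQC 0.11.7, HISAT2 2.1.0 and HTSeq 0.12.4 were used beside DESeq2 and HOMER, with build GRCm39. The sources used here state neither the strand setting nor the annotation. The 5 rows that name no gene held 67.3% to 67.7% of reads and entered neither library sizes nor tests.

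The counts went into edgeR 4.0.16 (R 4.3.3): filterByExpr by genotype, TMM scaling (factors 0.981 to 1.03) and the two-sided quasi-likelihood test by genotype, fitted on the whole table and Benjamini-Hochberg adjusted over 13052 genes at 0.05. An SE is the size of the log2 fold change divided by the square root of F, and its 95% interval uses the fit's degrees of freedom. CPM are TMM-scaled. The procedure was tested on simulated counts. Single values per library were compared by exact permutation. Lengths, GC content and overlaps came from GENCODE M21 (GRCm38) by identifier, for 98.4% of tested genes, and since the builds differ no gene coordinates are given. Promoters were RefSeq's (GRCm38.p6).

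The members and gene lists were chosen with earlier results of these data known. All members, all list genes and Med16 could be named, though some list genes that enter the counts are not reported here; Nhp2 and Nol7 are named for their overlap, and 5 genes for their likeness to the member with the smallest adjusted p. Alternatives were other scalings, DESeq2 1.42.0, no filter, a replicate block, GC content and transcript length offsets, and leaving out each library.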

Additional observations from a re-analysis of the deposited data

How the results depend on the processing

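Direction held for every member in all 12 alternatives except Ranbp9 and Gid4, which were not called and crossed 0. Of 120 values, 98 kept their side of the threshold, 16 lost a call and 6 gained one. Maea, the member called higher, was not called (0 members higher) with DESeq2, GC content or transcript length offsets or an assumed variation of 0.2, and the count was 0 to 1 without 1 library. Members called lower were 2 with a GC content offset, 0 with the assumed variation, and 2 to 6 without 1 library. Partners called higher were 0 with a GC content offset or the assumed variation and 0 to 2 without 1 library; those called lower were 3 with library size only, 0 with the assumed variation and 3 to 5 without 1 library. Other ubiquitin genes called higher were 1 with DESeq2 size factors, DESeq2 or no filter, 4 with library size only, 0 with either offset or the assumed variation, and 0 to 2 without 1 library; those called lower were 0 with the assumed variation. Ube2o reversed with a GC content offset, at -0.19. Over all genes, 331 were higher and 289 lower with the assumed variation, and 454 to 1839 higher and 704 to 2172 lower without 1 library. The cause of these shifts was not tested, but a fit without 1 library takes its spread from 1 genotype alone. The replicate block gave 1268 higher and 1499 lower genes and 5 members lower, with Armc8 added. The labels link same-numbered libraries by their number alone. Their deviations correlated at -0.0011 over 12818 genes, which cannot settle whether they shared anything else. At this depth Armc8, Gid4 and Rmnd5b, with 132 to 280 counts a library, were measured least precisely.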
